A study of Mus musculus with 8 samples.

Results

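The gap between *Ncor1* and *Oct4* knockdown was compared between day 3 and day 6 of reprogramming. For each gene, the difference at day 6 (libraries labelled *siOct4* minus *siNcor1*) was taken, and the same difference at day 3 was subtracted from it. This quantity, the interaction, is on the log2 scale. It used all 8 of the 8 libraries, 2 in each of 4 groups, and 13866 of the 18990 genes in the table, those with a mean of at least 1 CPM. A positive interaction means that the libraries labelled *siOct4* gained on *siNcor1* from day 3 to day 6, and a negative one that they lost ground. Every group came from primary mouse embryonic fibroblasts (MEFs) of strain BL6 with the genotype Wild-type, reprogrammed at passage 2. All carried rtTA and tet-STEMCCA lentiviruses (Oct4, Sox2, Klf4 and c-Myc), and all received 40 nM of a pool of siRNAs, against *Ncor1* or against *Oct4*, before the cassette was induced. All were then kept in 2 µg/mL doxycycline, 3 µM chiron, 0.25 µM of the TGF-beta inhibitor Alk5i, 50 µg/mL ascorbic acid and LIF. The ages of the animals are not given in the sources used here. Libraries of a non-targeting control were not analysed here, so the interaction says how the knockdowns moved relative to each other and not relative to undisturbed reprogramming.

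During the first days of reprogramming, fibroblasts lose matrix, adhesion and contractile gene expression and gain epithelial genes, a mesenchymal-to-epithelial transition that precedes the pluripotency network. NCOR1 is the scaffold of a corepressor complex that recruits the deacetylase HDAC3 to nuclear receptors and other factors. OCT4, encoded by *Pou5f1*, is both a factor of the cassette and a core member of the pluripotency network.

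The libraries held between 7735742 and 16445192 reads on genes, and 3 reads were worth between 0.174 and 0.380 CPM. The non-coding gene *Gm26917* accounted for 15.5% to 16.6% of all reads on day 3 and for 20.3% to 29.1% on day 6, with both of the highest shares in the libraries labelled *siOct4* at day 6. The 10 fibroblast markers were present in every library, at a summed level between 8292 and 12499 CPM at day 3 and between 3469 and 6470 CPM at day 6. Of 11 macrophage and leukocyte markers 4 passed the filter, at a summed level between 7.31 and 15.01 CPM, and the defining markers *Ptprc* and *Itgam* are not listed in the table. Of 10 endothelial markers 2 passed. The summed level of those in the table was between 43.18 and 46.69 CPM at day 3 and between 22.30 and 25.22 CPM at day 6. *Pecam1* and *Cdh5* had 24 and 14 reads over all 8 libraries. These are bulk samples, in which fewer cells of a type and less RNA per cell cannot be told apart. Nothing in the sources says that replicates came from separate animals, so the p-values measure the spread between these libraries.

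The targeted genes themselves were part of the interaction. *Ncor1* (chromosome 11, 62316426 to 62458541 of GRCm38, reverse strand) had 7.08 and 7.20 log2-cpm in *siNcor1* at day 3, against 7.82 and 7.94 where the label was *siOct4*. At day 6 the values were 7.26 and 7.28 against 7.33 and 7.13. The groups were apart at day 3 and overlapped at day 6, so the *Ncor1* difference of 0.74 faded to −0.04, an interaction of −0.79 (standard error 0.17, adjusted p = 0.0082, limma). It faded through the libraries labelled *siOct4*, where the gene fell by 0.65 between the days (adjusted p = 7.5e-04), while its change in *siNcor1* was 0.14 (adjusted p = 0.40). *Pou5f1* (chromosome 17, 35506018 to 35510772, forward strand) went the other way. It had 7.63 and 7.68 log2-cpm in *siNcor1* against 7.53 and 7.62 in libraries labelled *siOct4* on day 3, and 7.55 and 7.32 against 9.45 and 8.97 at day 6. A difference that did not pass at day 3 (−0.08, adjusted p = 0.94, with both libraries labelled *siOct4* just below both *siNcor1* libraries) therefore became 1.78 at day 6, with both libraries labelled *siOct4* above both *siNcor1* libraries. Because no fall of the target in them, relative to *siNcor1*, passed the test at either day, these libraries are called by their label throughout. Without a non-targeting control, this comparison does not measure the knockdown of *Oct4*. The paper reports from RT-qPCR that *Oct4* mRNA was silenced early and soon recovered, which it ascribes to overexpression from the cassette.

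The other 3 factors of the cassette moved with *Pou5f1*. All 4 had a positive interaction, of 1.85 for *Pou5f1*, 1.74 for *Klf4*, 1.64 for *Myc* and 1.58 for *Sox2*, with adjusted p-values between 6.4e-04 and 0.0023 (limma). Their differences at day 3 were between −0.08 and 0.05, and at day 6 between 1.59 and 1.78. The day 6 differences combined a rise in the libraries labelled *siOct4*, between 0.96 and 1.63, with values in *siNcor1* that fell for *Sox2* (−0.54, adjusted p = 0.043) and *Myc* (−0.68, adjusted p = 0.0062). All 4 calls held with any 1 library left out and under every other setting tried. Cassette and endogenous transcripts were not told apart here. Since the cassette carries all 4 factors, their values are not 4 independent results.

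Over all tested genes, the interaction was called for 2867 (20.7%) at an adjusted p under 0.05 (limma, with Benjamini-Hochberg adjustment over the 13866 genes). It was positive for 1077 (7.77%) and negative for 1790 (12.9%), and its median size among called genes was 1.02. The median over all tested genes was 0.01, and other scalings of the libraries put it between −0.04 and 0.07. At an unadjusted p under 0.05 there were 4920 genes. The count rested on single libraries in the *siNcor1* arm and at day 3. It was 1009 without *siNcor1* day 3 replicate 2, 1189 without *siNcor1* day 6 replicate 2, 1767 without *siNcor1* day 6 replicate 1 and 1377 without replicate 2 of the libraries labelled *siOct4* at day 3. With any of the other 4 left out it was between 2098 and 3667. In the same order, the 4 fits named gave 266, 308, 651 and 424 positive and 743, 881, 1116 and 953 negative genes, and there were 1622 positive genes without replicate 1 of the libraries labelled *siOct4* at day 6. No gene called in both the full and a reduced fit changed its direction. Counts within gene lists, given below, are to be read beside the 7.77% positive and 12.9% negative of all genes. In a reduced fit they are to be read beside its own total, since fewer or more calls in a list can follow the change over all genes.

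The genes that changed did so mostly through the libraries labelled *siOct4*. Of the 1790 genes with a negative interaction, 968 (54.1%) fell between the days in those libraries and were not called in *siNcor1*, with median changes of −0.995 there and −0.004 in *siNcor1*. A further 351 fell in both, by a median of −1.92 against −0.75 in *siNcor1*. Another 257 rose in *siNcor1* only, and 122 rose in *siNcor1* and fell in the libraries labelled *siOct4*. Of the 1077 genes with a positive interaction, 545 (50.6%) rose in the libraries labelled *siOct4* and were not called in *siNcor1*. The next largest groups were 235 genes that fell in *siNcor1* only and 166 that rose in both. For reference, 4819 genes (34.8%) were called between the days in *siNcor1* (2360 without its day 3 replicate 2, and 2572 and 2980 without its day 6 replicate 1 or 2) and 7312 (52.7%) in the libraries labelled *siOct4*.

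**Figure D1:**
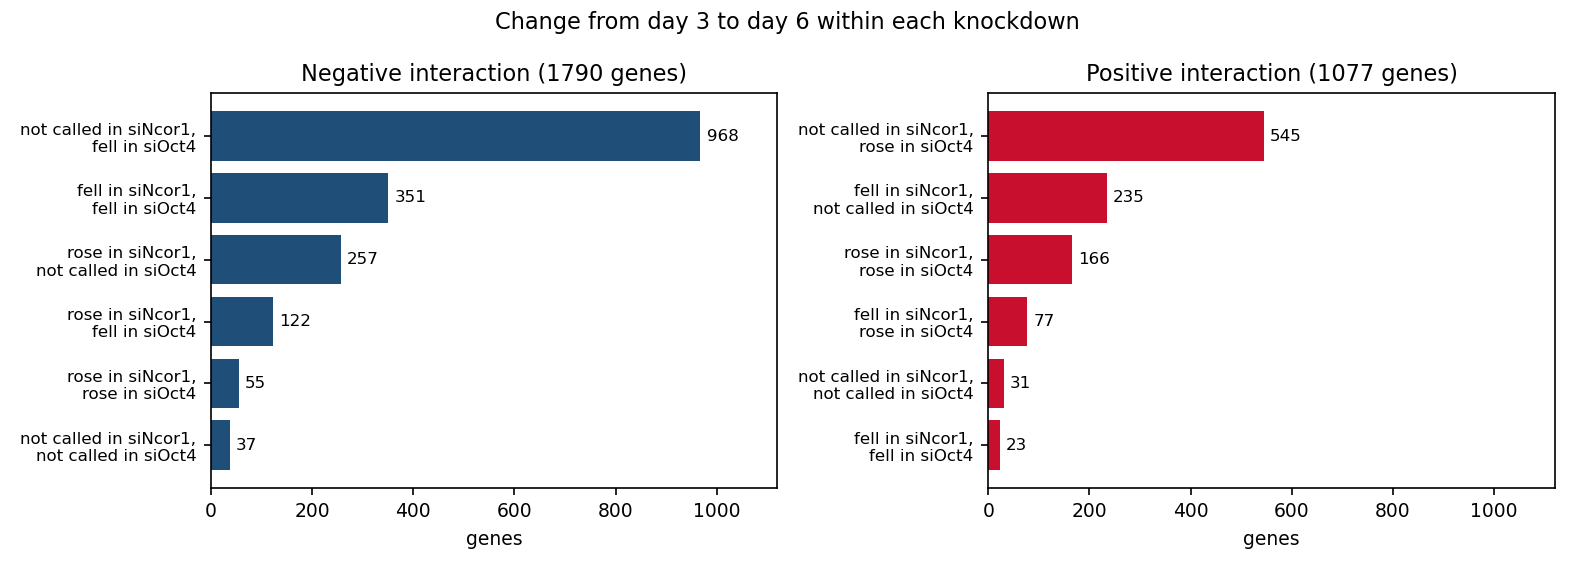
Numbers of genes (horizontal axis) with a negative (left, 1790 genes) or positive (right, 1077 genes) interaction, split by whether they rose, fell or were not called between day 3 and day 6 within each knockdown (limma, adjusted p under 0.05). The longest bar on each side is a change in the libraries labelled *siOct4* with no call in *siNcor1*, 968 genes that fell and 545 that rose.

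The interaction genes were then sorted by the tests at each day. At day 3 the difference was called for 148 genes (1.07%), of which 96 (0.692%) were lower in the libraries labelled *siOct4*, and at day 6 for 4251 (30.7%). A gene was named as reversed when it was called at both days in opposite directions, as same direction when called at both days in 1 direction, as appeared when called at day 6 alone and as faded when called at day 3 alone. By this rule 2455 of the 2867 genes appeared (860 positive, 1595 negative), 61 reversed (26 positive, 35 negative), 50 faded (37 positive, 13 negative) and 8 kept 1 direction. The other 293 were called at neither day. These counts follow the few calls at day 3, which every single library moved. Either *siNcor1* day 3 library, left out, took the day 3 calls to 3, the reversed genes to 0 and the faded genes to 1. Left out one at a time, *siNcor1* day 6 replicates 1 and 2 gave 97 and 98 day 3 calls and 28 and 20 reversed genes. Replicates 1 and 2 of the libraries labelled *siOct4* at day 3 gave 50 and 39 day 3 calls, 13 and 7 reversed genes and 18 and 19 that faded. Those at day 6 gave 375 and 365 day 3 calls, 165 and 176 reversed genes and 105 and 100 that faded. The day 6 calls numbered 2640 and 1398 without *siNcor1* day 6 replicate 1 or 2. The appeared genes numbered 950 without *siNcor1* day 3 replicate 2, 1463 and 893 without *siNcor1* day 6 replicate 1 or 2, and 1250 without replicate 2 of the libraries labelled *siOct4* at day 3. Of the 148 genes called at day 3, the remaining 29 were not called for the interaction.

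Many of the genes that appeared were already apart at day 3 in the opposite sense. Judged by the libraries alone, 1733 of the 2867 genes had both libraries of one knockdown above both of the other at each day, with the order turned between the days. Over all tested genes, the libraries of the knockdowns did not overlap for 43.4% at day 3 and 64.7% at day 6. In 1171 of the 1733 the libraries labelled *siOct4* were the higher ones at day 3 and the lower ones at day 6, and in 562 the reverse. Among all tested genes such a turn was seen for 2775 (20.0%), 1699 of them from higher to lower (12.3%) and 1076 from lower to higher (7.76%). Since the interaction subtracts the day 3 difference, genes with opposite values at the days are favoured by its call, so this count is a description. Of the 2455 genes that appeared, 998 had overlapping libraries at day 3, 1388 were apart in the opposite direction and 69 in the same direction.

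**Figure D2:**
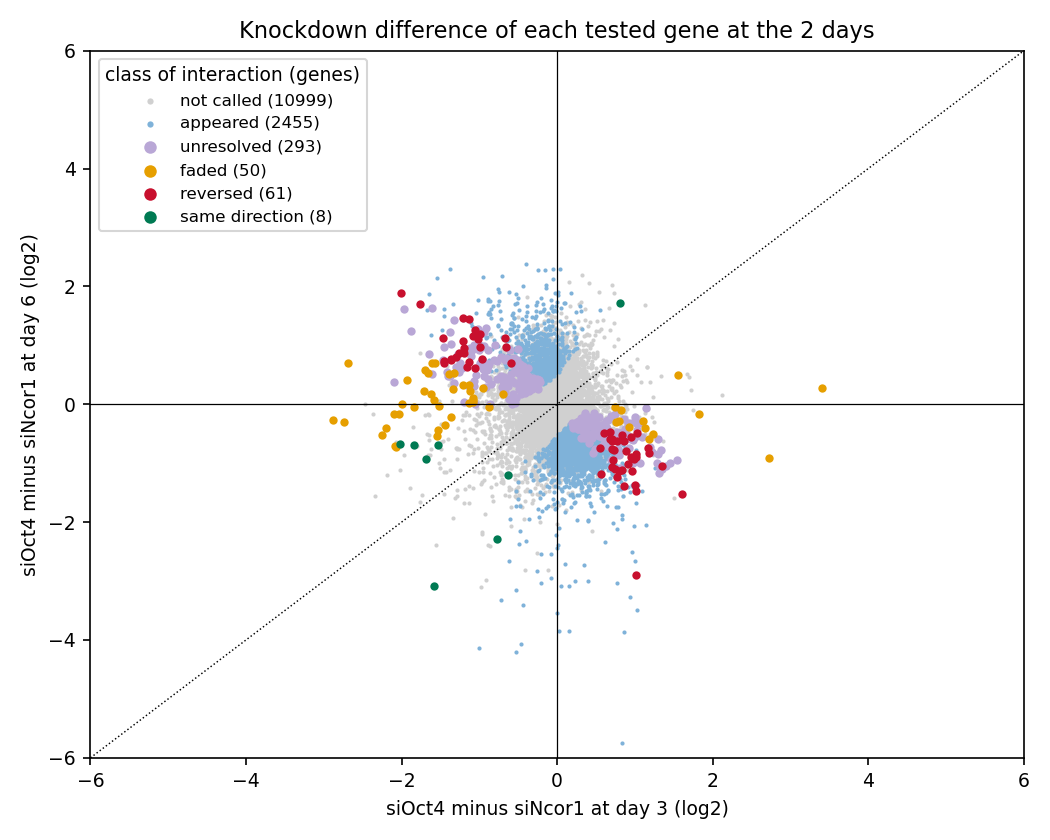
Difference between the libraries labelled *siOct4* and *siNcor1* for each of the 13866 tested genes at day 3 (horizontal axis, log2) and at day 6 (vertical axis, log2), coloured by class. The dotted line marks equal differences at both days. Most genes called for the interaction lie in the upper left and the lower right, where the 61 reversed genes (red) have a difference of opposite sign at each day, and the 50 that faded (orange) lie near 0 on the vertical axis.

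Among reversed genes with a negative interaction, *Dusp9* had the largest change. This gene (chromosome X, 73639419 to 73643514, forward strand) encodes a phosphatase that inactivates MAP kinases. It had 1.90 and 2.11 log2-cpm in *siNcor1* and 3.02 in both libraries labelled *siOct4* at day 3, and 5.57 and 5.56 against 2.79 and 2.56 at day 6. The order of the groups turned without overlap, because *Dusp9* rose by 3.56 in *siNcor1* (adjusted p = 3.6e-07), while its change was −0.35 in the libraries labelled *siOct4* (adjusted p = 0.12). Its interaction was −3.91 (standard error 0.25, adjusted p = 3.9e-05, limma), and with 1 library left out it was between −4.02 and −3.80. *Tnn*, encoding the matrix protein tenascin-N, turned from a difference of 1.61 at day 3 to −1.52 at day 6. *Dysf*, which encodes the membrane repair protein dysferlin, went from 1.01 to −1.47 by falling in the libraries labelled *siOct4*, from 5.73 and 6.13 to 2.99 and 3.45 log2-cpm. *Ccl2*, a chemokine that attracts monocytes, had 3.88 and 3.92 log2-cpm in *siNcor1* and 5.24 in both libraries labelled *siOct4* at day 3, and 4.42 and 4.26 against 2.97 and 3.63 at day 6. Its interaction was −2.39 (standard error 0.28, adjusted p = 6.3e-04).

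The reversed genes with a positive interaction were led by *Barx1*, a homeobox gene. It had 1.72 and 2.20 log2-cpm in *siNcor1* against 0.29 and −0.38 in libraries labelled *siOct4* on day 3, and 1.78 and 1.41 against 3.41 and 3.58 at day 6. In *siNcor1* its change was −0.36 (adjusted p = 0.38), whereas in the libraries labelled *siOct4* it rose by 3.54, which gave an interaction of 3.90 (standard error 0.43, adjusted p = 6.1e-04, limma). *Slain1*, a regulator of microtubule growth, moved from a difference of −1.21 to 1.47. *Atp2a3*, encoding a calcium pump of the endoplasmic reticulum, rose in both knockdowns, by 2.12 and 4.72, and crossed from −1.46 to 1.13. *Nnat*, an imprinted gene active in neural cells, and *Pdk1*, a kinase that inhibits pyruvate dehydrogenase, were reversed as well, with interactions of 1.62 and 1.79.

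**Figure D3:**
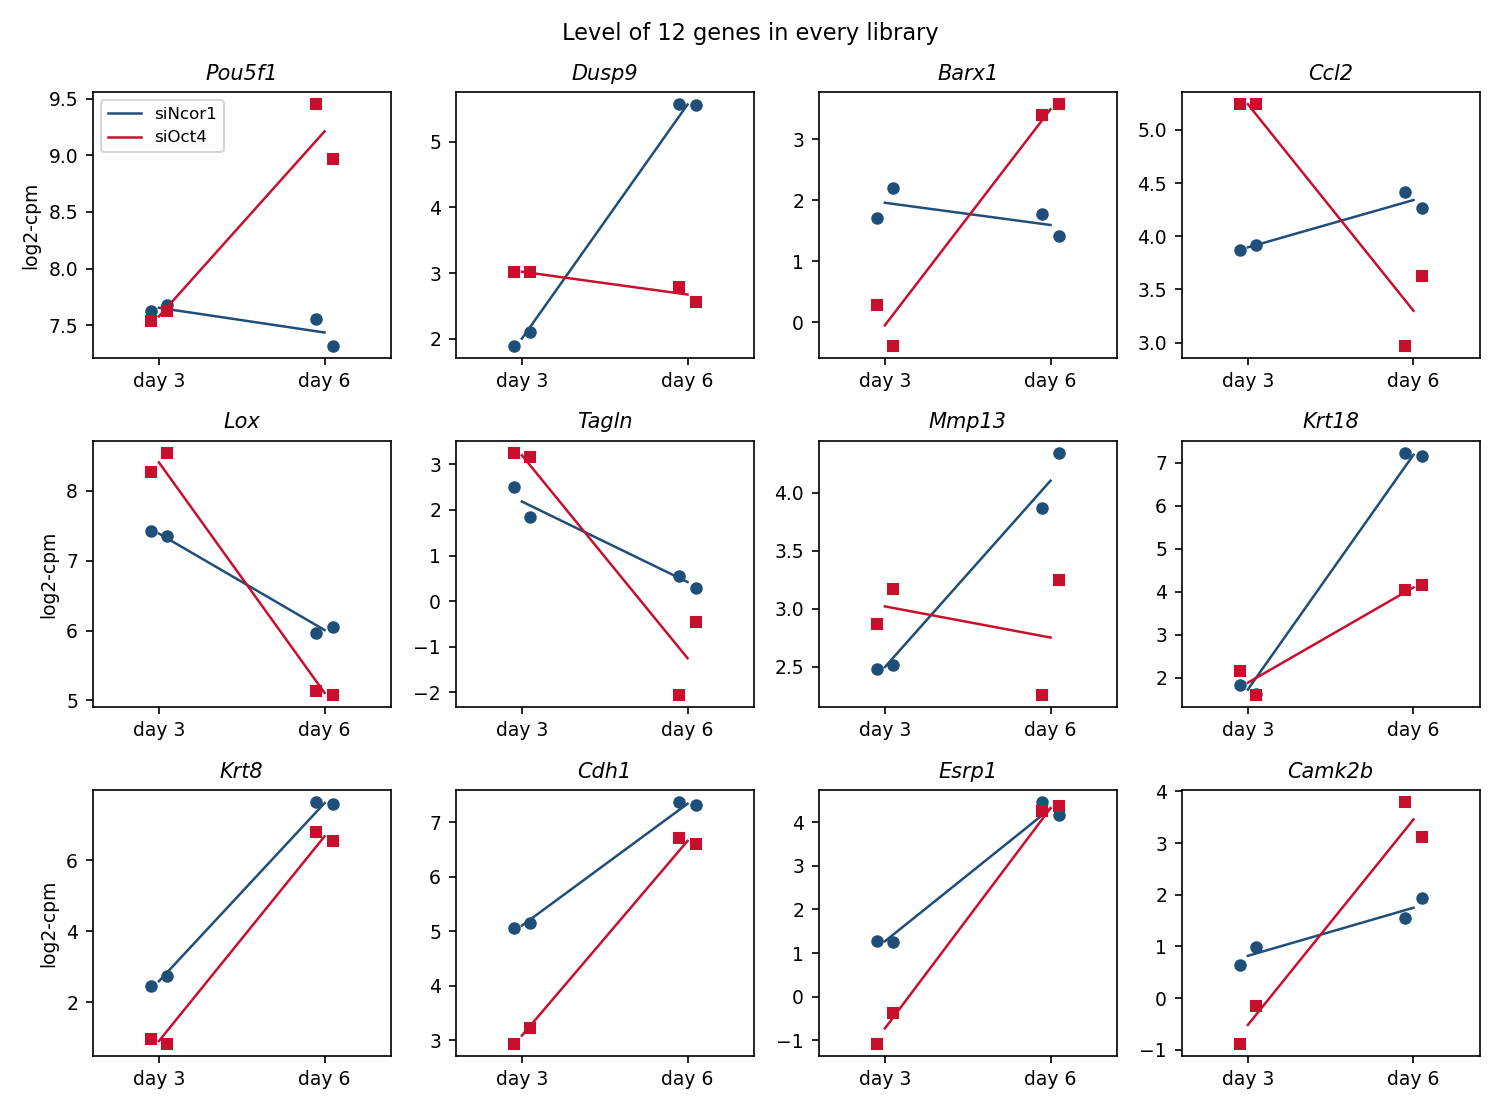
Level of 12 genes in log2-cpm (vertical axis, a separate scale for each gene) at day 3 and day 6. Each point is 1 library, circles for *siNcor1* and squares for libraries labelled *siOct4*, and the lines join group means of 2 libraries. The lines cross in most panels, among them *Dusp9*, *Barx1*, *Ccl2*, *Lox*, *Pou5f1*, *Mmp13*, *Krt18* and *Camk2b*. For *Cdh1* and *Krt8* they run closer together at day 6 and for *Esrp1* they meet.

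Actin and contractile genes formed the list with the highest share of called genes after the cassette. Of its 29 tested genes 26 had a negative interaction and 0 a positive one, against 12.9% negative over all tested genes. Without overlap of the groups at either day, 26 turned from higher to lower in the libraries labelled *siOct4*. Over all tested genes 12.3% did so. The median difference went from 0.58 at day 3 to −0.99 at day 6, and the median interaction was −1.54, between −1.59 and −1.49 under other scalings. Between the days 25 of the 29 fell in *siNcor1*, where the median change of the list was −1.08, and 29 fell in the libraries labelled *siOct4*, where it was −2.40. *Acta2*, smooth muscle actin, had 10.56 and 9.98 log2-cpm in *siNcor1* against 10.99 and 11.12 in libraries labelled *siOct4* on day 3, and 8.22 and 8.02 against 6.64 and 6.68 at day 6. The order turned here too, with an interaction of −2.24 (standard error 0.25, adjusted p = 6.1e-04, limma). *Lmod1*, which nucleates actin filaments in smooth muscle, had an interaction of −2.37. *Tagln*, encoding transgelin, had the largest value of the list, −2.68, which lost its call without *siNcor1* day 3 replicate 2. Without that library 16 of the 29 genes were called.

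The CArG box, the site bound by serum response factor, was searched on both strands in the 250 bases before RefSeq start sites (GRCm38.p6). It lay before 150 of the 10121 tested genes with such a sequence (1.48%) and before 4 of the 25 contractile genes with one, *Cnn2*, *Ldb3*, *Myl9* and *Srf*. Shown are 60-base windows, 5′ to 3′ on the strand of the gene, of the 2 of these genes whose calls are described next, with the box in capitals. The *Cnn2* window is chr10:79988519-79988578 (forward strand) and the *Myl9* window chr2:156775278-156775337 (forward strand).
Cnn2: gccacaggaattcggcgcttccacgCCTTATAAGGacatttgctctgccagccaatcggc
Myl9: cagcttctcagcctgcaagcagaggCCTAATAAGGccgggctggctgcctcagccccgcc
*Cnn2* encodes a calponin and *Myl9* a myosin light chain, and both were picked for this match after their values were seen. *Myl9* had 7.64 and 7.004 log2-cpm in *siNcor1* against 8.04 and 8.08 in libraries labelled *siOct4* on day 3, and 5.74 and 5.50 against 4.40 and 4.21 at day 6. Its interaction was −2.05 and that of *Cnn2* −1.61 (adjusted p = 7.4e-04 and 9.2e-04, limma). *Srf*, which encodes the factor itself, had an interaction of −0.63 that did not pass (adjusted p = 0.051). A match of letters is no evidence of binding.

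Matrix genes changed with the contractile genes. Of 30 tested fibrillar collagens and assembly genes, 24 had a negative interaction and 0 a positive one, and 24 crossed from higher to lower without overlap. The shares over all tested genes were 12.9% negative and 12.3% crossing in this way. Of 34 elastic fibre, matricellular and proteoglycan genes, 26 were negative and 1 positive, and of 24 basement membrane genes 12 were negative and 1 positive. The median differences of these lists went from 0.43, 0.33 and 0.03 at day 3 to −0.75, −0.83 and −0.77 at day 6. *Lox*, the enzyme that cross-links collagen, was reversed. It had 7.43 and 7.35 log2-cpm in *siNcor1* against 8.27 and 8.54 in libraries labelled *siOct4* on day 3, and 5.97 and 6.05 against 5.13 and 5.08 at day 6, with an interaction of −1.92 (standard error 0.17, adjusted p = 2.4e-04, limma). It fell in both knockdowns, by 1.38 in *siNcor1* and by 3.30 in the libraries labelled *siOct4*. *Col11a1* and *Col12a1*, a fibrillar collagen and one that decorates fibrils, had interactions of −1.998 and −1.75 and were called at day 6 alone.

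Among adhesive glycoproteins, *Tnc*, encoding tenascin-C, was reversed with a difference of 0.77 at day 3 and −1.23 at day 6. The basement membrane linker *Nid1* was reversed as well, from 0.73 to −0.77. It did not fall in both knockdowns but rose by 0.66 in *siNcor1* and fell by 0.84 in the libraries labelled *siOct4*. *Thbs1*, encoding thrombospondin-1, had 12.17 and 11.77 log2-cpm in *siNcor1* against 12.65 and 12.97 in libraries labelled *siOct4* on day 3, and 10.79 and 10.75 against 9.25 and 9.47 at day 6. The interaction of *Thbs1* was −2.25 and that of *Fbln5*, an elastic fibre gene, −1.87. The 1 positive gene of the matricellular list was *Acan*, encoding the cartilage proteoglycan aggrecan, which fell by 1.29 in *siNcor1* and rose by 1.15 in the libraries labelled *siOct4* (interaction 2.43, adjusted p = 0.0020, limma). Of 28 integrin and focal adhesion genes 18 were negative and 1 positive, and 7 were negative without *siNcor1* day 3 replicate 2, 11 and 8 without *siNcor1* day 6 replicate 1 or 2, and 8 without replicate 2 of the libraries labelled *siOct4* at day 3. The fibronectin receptor chain *Itga5* was reversed (0.88 to −0.80).

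Proteases of the matrix and their inhibitors were negative for 23 of 26 tested genes, with a median difference of 0.42 at day 3 and −0.86 at day 6. The number was 13 without *siNcor1* day 3 replicate 2. *Adam12*, a membrane metalloprotease, fell in both knockdowns and had an interaction of −1.80. The letters TGAGTCA, the classical AP-1 site, were searched on both strands, so TGACTCA was counted too, in the same 250-base windows. They occurred before 408 of the 10121 tested genes (4.03%) and before 5 of the 16 protease and inhibitor genes with a sequence, *Adam19*, *Mmp3*, *Mmp10*, *Mmp13* and *Plaur*. Shown are the 57-base windows of 2 of these genes with a call, *Mmp13* (chr9:7272454-7272510, forward strand) and *Plaur* (chr7:24462389-24462445, forward strand), with the motif in capitals.
Mmp13: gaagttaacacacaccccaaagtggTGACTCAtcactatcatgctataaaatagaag
Plaur: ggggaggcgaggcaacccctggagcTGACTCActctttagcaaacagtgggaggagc
*Plaur*, the urokinase receptor, was named for this match after its values were seen and had an interaction of −1.07 (adjusted p = 0.0022). *Mmp13*, a collagenase, had 2.48 and 2.51 log2-cpm in *siNcor1* against 2.87 and 3.17 in libraries labelled *siOct4* on day 3, and 3.87 and 4.34 against 2.26 and 3.24 at day 6. Its interaction of −1.88 lost its call without *siNcor1* day 3 replicate 2 or *siNcor1* day 6 replicate 2. *Mmp10* was not called (−1.06, adjusted p = 0.36). Of 16 AP-1 and immediate early genes, 4 were called, all negative, among them *Fosl2* at −1.23, and 8 were called without replicate 1 of the libraries labelled *siOct4* at day 6.

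Chemokine and inflammatory genes followed the same direction, with 19 of 26 negative and 0 positive, and a median difference that went from 0.47 to −0.87. The number was 10 without *siNcor1* day 3 replicate 2. *Saa3*, an acute-phase protein gene, was among the genes whose positive difference faded. It had −0.29 and 0.17 log2-cpm in *siNcor1* against 3.32 and 3.36 in libraries labelled *siOct4* on day 3, and 0.54 and 0.09 against −0.19 and 1.38 at day 6. The groups overlapped at day 6, and the interaction was −3.12 (standard error 0.63, adjusted p = 0.0064, limma). Outside this list, *Col7a1* (anchoring fibrils), *Fxyd5* (a modulator of the sodium pump) and *Sod3* (extracellular superoxide dismutase) faded from differences between 0.92 and 1.14 to differences between −0.40 and −0.29. Of 19 interferon-stimulated genes 6 were negative and 1 positive, and between 1 and 3 were negative without any 1 of the 4 *siNcor1* libraries or replicate 2 of the libraries labelled *siOct4* at day 3.

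Signalling genes of several pathways lost ground in the libraries labelled *siOct4*. Of 24 TGF-beta signalling genes 15 were negative and 0 positive, of 24 BMP genes 13 and 0, of 32 WNT genes 15 and 1, of 33 FGF, PDGF and EGF genes 17 and 3, and of 23 YAP and TEAD targets 13 and 0. The TGF-beta and YAP counts stayed within 1.5 times these values with any 1 library left out. The lowest BMP, WNT and FGF counts were 6, 6 and 7, and the libraries behind them are named at the end of the paragraph. All groups received the TGF-beta inhibitor. The ligand gene *Inhba*, which encodes a subunit of activin, was reversed from 0.80 to −1.13, and the ligand gene *Tgfb3* had an interaction of −1.62. The WNT ligand *Wnt5a* had 5.77 and 5.71 log2-cpm in *siNcor1* against 6.22 and 6.36 in libraries labelled *siOct4* on day 3, and 5.61 and 5.98 against 4.84 and 4.88 at day 6. Its interaction was −1.48, beside −1.59 for the WNT modulator *Dkk3*. *Pdgfc*, a ligand of PDGF receptors, was apart at day 6 alone (−1.42, adjusted p = 7.3e-04, limma). *Ctgf* and *Ankrd1*, targets of YAP, had the most negative values of that list. *Ctgf* had 6.90 and 6.09 log2-cpm in *siNcor1* against 7.18 and 7.35 in libraries labelled *siOct4* on day 3, and 4.20 and 3.92 against 1.77 and 2.13 at day 6, an interaction of −2.88 (standard error 0.32, adjusted p = 6.1e-04). The *Ankrd1* interaction was −2.43. Negative BMP genes numbered 7 without *siNcor1* day 3 replicate 2, 8 without *siNcor1* day 6 replicate 1, 6 without *siNcor1* day 6 replicate 2 and 6 without replicate 2 of the libraries labelled *siOct4* at day 3. Without *siNcor1* day 3 replicate 2, *siNcor1* day 6 replicate 2 or replicate 2 of the libraries labelled *siOct4* at day 3, there were 7, 6 and 8 WNT genes and 7, 9 and 9 FGF, PDGF and EGF genes. The 3 positive FGF, PDGF and EGF genes were 0 in each of these 3 fits and 1 without *siNcor1* day 3 replicate 1.

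Regulators of the mesenchymal state were called less evenly. Of 26 tested, 13 were negative, 2 positive, and 8 were negative without *siNcor1* day 3 replicate 2. The positive count was 1 without either *siNcor1* day 3 library, *siNcor1* day 6 replicate 2, or among the libraries labelled *siOct4* replicate 2 at day 3 or replicate 1 at day 6. The transcription factor genes *Snai1*, *Zeb1* and *Prrx2* had interactions of −1.42, −1.15 and −1.32. *Zeb1* had 6.57 and 6.39 log2-cpm in *siNcor1* and 6.65 in both libraries labelled *siOct4* at day 3, and 5.94 and 6.21 against 4.93 and 5.24 at day 6. Its difference thus appeared at day 6. In contrast, the forkhead gene *Foxd1* gained ground (interaction 1.27, adjusted p = 0.0037, limma), from 4.29 and 4.39 to 5.83 and 5.31 log2-cpm in the libraries labelled *siOct4*, while *siNcor1* had between 4.70 and 4.77 in all 4 libraries. Of the 10 fibroblast markers 8 were negative, with 5 without *siNcor1* day 3 replicate 2 and 4 without *siNcor1* day 6 replicate 2. The summed level of these markers was between 8292 and 8448 CPM in *siNcor1* and between 11022 and 12499 CPM in the libraries labelled *siOct4* at day 3, and between 6250 and 6470 against between 3469 and 3661 CPM at day 6. Their part in the matrix and contractile results was not tested, and 3 of the 10 are collagens of the matrix lists.

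Epithelial genes did not move as 1 group. Of 36 tested adhesion and polarity genes, 8 were positive and 6 negative, with medians of −0.60 at day 3 and −0.64 at day 6 and a median interaction of −0.01 that changed sign under other scalings (−0.14 to 0.05). Leaving out 1 library gave between 3 and 10 positive and between 2 and 6 negative genes. Positive genes numbered 4 and 3 without *siNcor1* day 3 replicate 1 or 2, 5 and 4 without *siNcor1* day 6 replicate 1 or 2, and 5 without replicate 1 of the libraries labelled *siOct4* at day 3. Negative genes numbered 3 without *siNcor1* day 3 replicate 2 or *siNcor1* day 6 replicate 1, and 2 without *siNcor1* day 6 replicate 2 or replicate 2 of the libraries labelled *siOct4* at day 3. All 8 positive genes had a difference below 0 at day 3, which was still below 0 at day 6 for 3 of them and above 0 for 5. *Cdh1*, encoding E-cadherin, had 5.05 and 5.15 log2-cpm in *siNcor1* against 2.94 and 3.23 in libraries labelled *siOct4* on day 3, and 7.37 and 7.31 against 6.71 and 6.60 at day 6. The libraries labelled *siOct4* stayed below at both days, but the difference went from −2.02 to −0.68, an interaction of 1.34 (standard error 0.19, adjusted p = 0.0012, limma). *Spint2*, an inhibitor of surface proteases, had a deficit of −1.32 at day 3 and a difference of 0.53 at day 6 that did not pass (adjusted p = 0.096).

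A gap at day 3 also closed for the epithelial regulator *Esrp1*. *Esrp1*, a splicing factor of epithelial cells, had 1.28 and 1.26 log2-cpm in *siNcor1* against −1.07 and −0.38 in libraries labelled *siOct4* on day 3, and 4.46 and 4.17 against 4.27 and 4.38 at day 6. The groups overlapped at day 6, and the interaction was 2.00 (standard error 0.37, adjusted p = 0.0036, limma). The level at day 3 was low in the libraries labelled *siOct4*. Under other settings the interaction kept its call, with a size between 1.16 and 2.27. *Nfasc* (the adhesion protein neurofascin), *Cnpy1* and *Pcsk1n* (an inhibitor of prohormone convertase) faded similarly, with differences at day 3 of −2.73, −1.70 and −1.66. The size of the *Nfasc* interaction was between 1.49 and 2.67 under other settings.

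Other epithelial genes were apart at day 6 alone, but *Krt8* was apart at both days. The keratins *Krt8* and *Krt18*, whose proteins pair in the filaments of simple epithelia, differed in their course. *Krt18* (chromosome 15, 102028180 to 102032027, forward strand) had 1.82 and 1.63 log2-cpm in *siNcor1* against 2.16 and 1.61 in libraries labelled *siOct4* on day 3, and 7.22 and 7.14 against 4.05 and 4.15 at day 6. It rose in both knockdowns, by 5.46 and by 2.22, and its difference went from 0.16 to −3.08, an interaction of −3.24 (standard error 0.28, adjusted p = 2.4e-04, limma). *Krt8* had a difference of −1.68 at day 3 and −0.94 at day 6. Its interaction of 0.75 (adjusted p = 0.033) lost its call with 5 of the 8 single libraries left out (*siNcor1* day 3 replicate 2, either *siNcor1* day 6 library, and among the libraries labelled *siOct4* replicate 2 at day 3 and replicate 1 at day 6), without the variance trend, with a pseudocount of 1 CPM and with voom. *Krt7* rose by 3.41 in *siNcor1* and was not called in the libraries labelled *siOct4* (−0.59, adjusted p = 0.18), an interaction of −4.004 (adjusted p = 7.4e-04).

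Some genes of the epithelial, keratin and epidermal lists had almost no reads in 1 or more groups. For these, reads per library are given and no fold change. *Gjb2*, encoding a gap junction protein, had 143 and 152 reads in *siNcor1* at day 6 and 1 read in each library labelled *siOct4*, after 10 and 2 against 8 and 6 reads at day 3. *Cldn6*, a tight junction gene, had 249 and 214 reads against 27 and 53 at day 6, and at most 2 reads in any library at day 3. The *Cldn6* call was lost with voom and without most single libraries. *Krt16* had 50 reads in each *siNcor1* library at day 6 against 2 and 3, and 0 in all 4 libraries at day 3. Its call was lost without *siNcor1* day 6 replicate 2. Of 14 epidermal genes tested, 6 were negative and 2 positive, and negative ones numbered 2 without *siNcor1* day 3 replicate 2 or *siNcor1* day 6 replicate 2, and 3 without *siNcor1* day 6 replicate 1 or replicate 2 of the libraries labelled *siOct4* at day 3. Positive ones numbered 0 without either *siNcor1* day 3 library, *siNcor1* day 6 replicate 1 or replicate 2 of the libraries labelled *siOct4* at day 3, and 1 without *siNcor1* day 6 replicate 2.

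Genes of pluripotency and early reprogramming split as well. Of 19 tested pluripotency genes, 6 were positive and 3 negative. The cassette factors are not in this list. The median interaction of the list was 0.78, while its median difference was negative at both days (−0.28 and −0.44). The positive count was 1 without *siNcor1* day 3 replicate 2 or *siNcor1* day 6 replicate 2, and 2 without *siNcor1* day 6 replicate 1. The positive genes chosen for naming were *Nr5a2*, *Tdh* and *Nr0b1*. Under other settings their interactions were 1.099 to 2.05, 1.14 to 2.01 and 1.196 to 1.55, in that order. Each of these calls was lost without the variance trend and with several single libraries left out. The 3 negative genes, described next, went against the median of the list. *Tfcp2l1*, a naive pluripotency factor, had 1.69 and 1.92 log2-cpm in *siNcor1* against 2.75 and 2.80 in libraries labelled *siOct4* on day 3, and 4.31 and 4.21 against 1.90 and 1.60 at day 6. The groups changed order without overlap, and the interaction was −3.48 (standard error 0.29, adjusted p = 2.4e-04, limma). *Tbx3*, another factor of this network, had an interaction of −1.40. *Esrrb* had 73 and 83 reads in *siNcor1* at day 6 against 14 and 16, with at most 1 read in any library at day 3.

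Of 22 tested markers of early reprogramming stages, 3 were positive and 5 negative, and 3 were negative without any 1 of the 4 *siNcor1* libraries or replicate 2 of the libraries labelled *siOct4* at day 3. The positive count was 1 without *siNcor1* day 3 replicate 2 or *siNcor1* day 6 replicate 2. *L1td1*, an RNA-binding protein gene of pluripotent cells, faded from −1.34 to 0.27, with an interaction of 1.61. *Slc2a3*, a high-affinity glucose transporter, kept 1 direction, with 4.04 and 3.78 log2-cpm in *siNcor1* against 3.17 and 3.11 in libraries labelled *siOct4* on day 3, and 7.99 and 7.95 against 5.59 and 5.79 at day 6. The deficit widened from −0.77 to −2.28, and the interaction was −1.51 (standard error 0.19, adjusted p = 7.9e-04, limma). *Thy1*, a fibroblast surface marker, went from 0.53 to −0.68 by rising in *siNcor1* (1.14). *Dppa3* had 78 and 91 reads in *siNcor1* at day 6 against 7 and 22, and 0 in the 4 libraries of day 3. The *Dppa3* call was lost without most single libraries.

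Most of the called trophoblast and imprinted genes had a negative interaction. Of 17 tested trophoblast and extraembryonic genes 6 were negative and 1 positive, and of 22 imprinted genes 13 were negative and 2 positive. Neither negative count moved by over 1.5 times with 1 library left out, while 1 imprinted gene was positive without *siNcor1* day 3 replicate 2, either *siNcor1* day 6 library or replicate 2 of the libraries labelled *siOct4* at day 3. *Gata2*, a factor of trophoblast and blood lineages, had 3.96 and 3.75 log2-cpm in *siNcor1* against 3.69 and 3.98 in libraries labelled *siOct4* on day 3, and 5.13 and 5.24 against 3.05 and 2.88 at day 6. Its difference went from −0.02 to −2.22. *Peg10*, an imprinted gene needed in the placenta, rose by 1.34 in *siNcor1* and fell by 1.12 in the libraries labelled *siOct4*, an interaction of −2.46 (standard error 0.27, adjusted p = 6.1e-04, limma). *Igf2*, the imprinted growth factor gene, had an interaction of −1.93. *Phlda2*, imprinted and active in placenta, had 119 and 126 reads in *siNcor1* at day 6 against 12 and 21, and at most 4 reads in any library at day 3. *Gata3*, listed with epithelial regulators, went from 0.09 to −1.62. *Fabp3*, in no list and encoding a fatty acid carrier, went from 0.77 to −3.03. The imprinted gene *Nnat* was an exception, reversed in the positive direction as described above.

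Neural genes included members of both signs. Of 20 tested 8 were positive and 4 negative, with medians of 0.00 at day 3 and 0.18 at day 6. There were 3 positive genes without *siNcor1* day 3 replicate 2, and without *siNcor1* day 6 replicate 1, *siNcor1* day 6 replicate 2 or replicate 1 of the libraries labelled *siOct4* at day 3 there were 4. The appeared genes with a positive interaction that were named as the largest of their class were *Camk2b*, *Sowaha*, *Itpka* and *Hrk*. Of these, *Camk2b* and *Itpka*, which are in no list, encode kinases abundant in neurons. *Itpka* had 2.72 and 2.98 log2-cpm in *siNcor1* against 2.18 and 2.11 in libraries labelled *siOct4* on day 3, and 2.86 and 2.69 against 4.92 and 4.97 at day 6, an interaction of 2.88 (standard error 0.26, adjusted p = 2.4e-04, limma). *Camk2b* went from −1.34 to 1.71. *Neurog2*, a factor that starts neuronal differentiation, had 16 and 25 reads in *siNcor1* and 3 in each library labelled *siOct4* at day 3, and 22 and 8 against 42 and 36 at day 6. *Tubb3*, a neuronal tubulin, kept 1 direction and widened from 0.82 to 1.71, a call that was lost without *siNcor1* day 3 replicate 2 or *siNcor1* day 6 replicate 2. The 4 negative genes included *Gap43*, *Cplx2* and *Ncam1*, the last of which faded from 0.80 to −0.28. Of 8 glial markers 4 passed the filter, and limma called none of them.

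Amino acid genes under ATF4 were the metabolic list with the highest share of calls. Of 27 tested 15 were positive and 0 negative, with a median difference of −0.21 at day 3 and 0.51 at day 6, and 8 were called without *siNcor1* day 6 replicate 2. *Slc7a3*, a carrier of cationic amino acids, faded from −1.39 to 0.51. It had 6.45 and 6.73 log2-cpm in *siNcor1* against 5.05 and 5.37 in libraries labelled *siOct4* on day 3, and 6.39 and 6.15 against 6.42 and 7.13 at day 6, so the groups were apart at day 3 and at day 6 in opposite order. *Psph*, the last enzyme of serine synthesis, had an interaction of 1.38 (adjusted p = 0.0051, limma). The letters TGATGCAA, a composite site that ATF4 binds, and their reverse complement TTGCATCA lay in the 250 bases before 63 of the 10121 tested genes (0.622%) and before 4 of the 24 genes of this list with a sequence, *Chac1*, *Pycr1*, *Slc7a11* and *Vldlr*. The 58-base window of *Pycr1*, the only called gene of the 4, is chr11:120643819-120643876 on the reverse strand, with the motif in capitals.
Pycr1: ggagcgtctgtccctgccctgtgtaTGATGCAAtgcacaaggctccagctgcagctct
*Pycr1*, an enzyme of proline synthesis, went from −0.44 to 0.97, a call (adjusted p = 0.013) that was lost without *siNcor1* day 3 replicate 1 or *siNcor1* day 6 replicate 2. *Chac1*, which degrades glutathione, was not called (1.67, adjusted p = 0.12), with a wide spread at day 3 in *siNcor1* (3.34 and 1.12 log2-cpm).

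Lists of growth and division genes had positive median interactions, with calls that depended on single libraries. Of 40 DNA replication genes 14 were positive, of 40 mitosis genes 13, of 38 ribosome biogenesis genes 11, of 34 histones 9, of 49 oxidative phosphorylation genes 6 and of 71 ribosomal protein genes 5, and 0 were negative in any of these lists. These are 35.0%, 32.5%, 28.9%, 26.5%, 12.2% and 7.04% of the genes tested, against 7.77% positive over all genes, so the share of ribosomal protein genes was not above that of all genes. The median interactions were 0.61, 0.49, 0.50, 1.05, 0.36 and 0.48 in the same order, against 0.01 over all genes. They stayed above 0 under all 4 other scalings and with any 1 library left out. Without *siNcor1* day 3 replicate 2 the called genes were 3, 0, 1, 3, 0 and 0, without *siNcor1* day 6 replicate 2 they were 4, 1, 1, 0, 0 and 0, and without replicate 2 of the libraries labelled *siOct4* at day 3 they were 6, 0, 1, 0, 0 and 0. Without *siNcor1* day 6 replicate 1 they were 8, 6, 7, 15, 3 and 4. In the absence of *siNcor1* day 3 replicate 1 there were 2 histones, 2 oxidative phosphorylation genes and 0 ribosomal protein genes. Leaving out a library labelled *siOct4* gave more calls in some lists, namely 20 histones and 15 ribosomal protein genes without replicate 1 at day 3, 18 ribosome biogenesis, 19 ribosomal protein and 13 oxidative phosphorylation genes without replicate 1 at day 6, and 20 histones without replicate 2 at day 6.

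Among the genes of these lists chosen for naming, the calls of *Mcm10* and *Rrp9* held throughout. Other called members were not followed singly. *Mcm10*, a replication initiation factor, had 5.85 and 6.36 log2-cpm in *siNcor1* against 6.00 and 5.88 in libraries labelled *siOct4* on day 3, and 5.35 and 5.19 against 6.23 and 6.13 at day 6. It fell in *siNcor1* (−0.83, adjusted p = 0.0023) and was not called in the libraries labelled *siOct4* (0.24, adjusted p = 0.23), and its interaction was 1.07 (standard error 0.22, adjusted p = 0.0077, limma). *Rrp9*, which acts in ribosomal RNA processing, rose by 1.23 in the libraries labelled *siOct4* and had an interaction of 1.11. Of 24 p53 target and senescence genes 3 were called, all negative, and each of these calls was lost with 2 or more single libraries left out. The negative count was 0 without *siNcor1* day 3 replicate 2 or *siNcor1* day 6 replicate 2, 1 without *siNcor1* day 6 replicate 1 or replicate 1 of the libraries labelled *siOct4* at day 3, and 7 without replicate 2 of those at day 6.

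**Figure D4:**
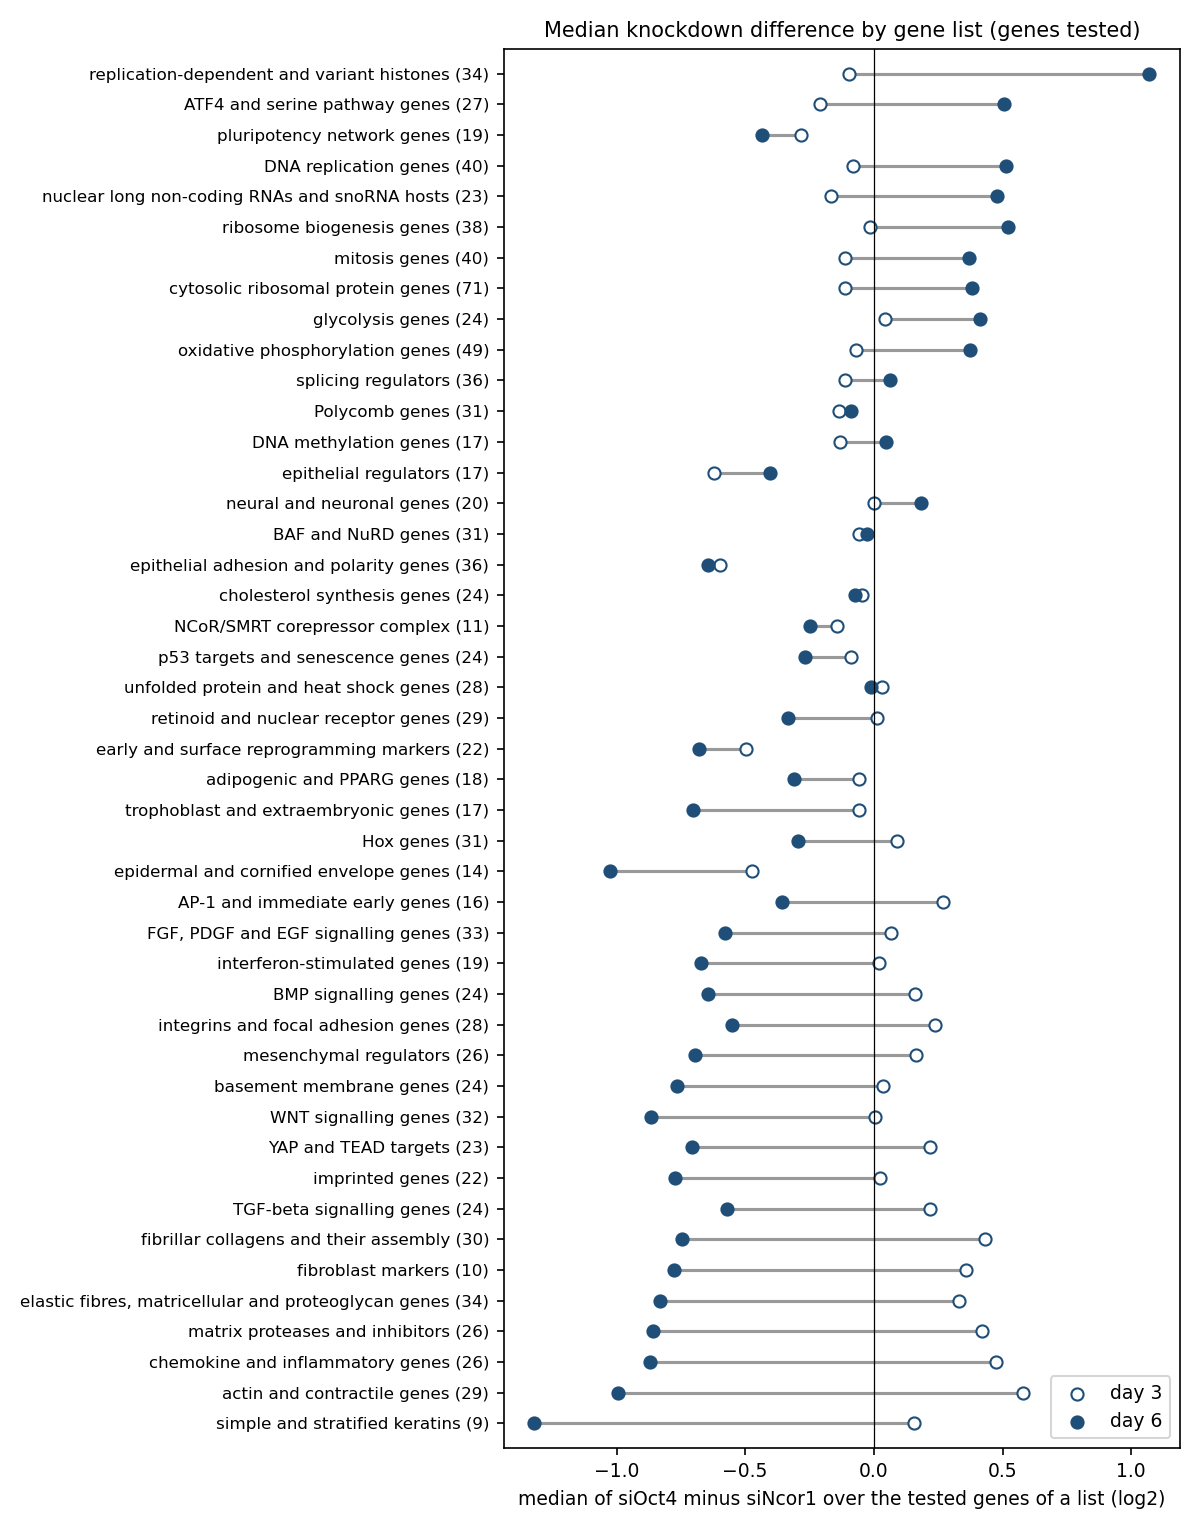
Median difference between the libraries labelled *siOct4* and *siNcor1* (horizontal axis, log2) over the tested genes of a list (number in parentheses). Open circles are day 3 and filled circles day 6, and lists are ordered by the median interaction. The cassette and the macrophage, endothelial, muscle, glial and cartilage lists are not drawn. Contractile, protease, inflammatory and matrix lists run from above 0 to below it, growth and ATF4 lists mostly from below 0 to above it, and cholesterol and BAF lists hardly move.

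Glycolysis genes went both ways, with 7 positive and 2 negative of 24 tested, and 3 or 4 positive without *siNcor1* day 3 replicate 2, *siNcor1* day 6 replicate 2 or replicate 2 of the libraries labelled *siOct4* at day 3, against 11 without replicate 2 of those at day 6. The negative count was 1 without *siNcor1* day 3 replicate 2, either *siNcor1* day 6 library or either library labelled *siOct4* at day 3. *Pdk1* is described above, and the hexokinase gene *Hk1* went from 0.30 to −0.63 (interaction −0.93, adjusted p = 0.0064, limma).

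Beside the 20.7% called over all genes, few genes were called in the NCoR corepressor complex (1 of 11, *Ncor1* itself), cholesterol synthesis (2 of 24), Hox genes (3 of 31), Polycomb genes (3 of 31), BAF and NuRD genes (3 of 31) and adipogenic genes (2 of 18). These counts, too, moved with single libraries. Adipogenic genes numbered 5 of 18 (27.8%, against 15.7% of all genes in that fit) without *siNcor1* day 3 replicate 1, 0 without replicate 2, and 1 and 4 without replicate 2 of the libraries labelled *siOct4* at day 3 or day 6. Polycomb genes numbered 0 without *siNcor1* day 3 replicate 2, *siNcor1* day 6 replicate 2 or replicate 2 of the libraries labelled *siOct4* at day 3, and 7 without either of those at day 6. BAF and NuRD genes numbered 1 without *siNcor1* day 3 replicate 2 or *siNcor1* day 6 replicate 2 and 8 without replicate 1 of the libraries labelled *siOct4* at day 6. Hox genes numbered 1 without either of the same *siNcor1* libraries or replicate 1 of the libraries labelled *siOct4* at day 3. Cholesterol genes numbered 0 without either of those *siNcor1* libraries or replicate 2 of the libraries labelled *siOct4* at day 3, 1 without *siNcor1* day 6 replicate 1 or replicate 1 of the libraries labelled *siOct4* at day 3, and 4 without replicate 2 of those at day 6. The corepressor complex had 3 and 4 calls without replicate 1 or 2 of the libraries labelled *siOct4* at day 6. Of the Hox genes, *Hoxc8* had an interaction of −1.56 and kept its call with any 1 library left out. *Smarcc2*, a BAF subunit, had one of −0.91. Of 36 splicing regulators 5 were positive and 3 negative. The positive count was 1 without *siNcor1* day 3 replicate 2 or *siNcor1* day 6 replicate 2, 3 without *siNcor1* day 6 replicate 1 or replicate 1 of the libraries labelled *siOct4* at day 3, 2 without replicate 2 of the latter and 9 without replicate 1 at day 6. The negative ones included *Mbnl2* at −0.96 and *Rbm47* at −2.38, of which *Rbm47* rose by 2.08 in *siNcor1* alone. Of 29 retinoid and nuclear receptor genes 7 were negative and 1 positive, with 3 or 4 negative with any 1 of 6 libraries left out (all but those labelled *siOct4* at day 6). *Vdr*, the vitamin D receptor, and *Cyp26b1*, which breaks down retinoic acid, had interactions of −1.40 and −1.17. Among 23 long non-coding RNAs and snoRNA hosts 5 were positive, with *Miat* highest at 2.51 (adjusted p = 0.0064). Without *siNcor1* day 3 replicate 2 or *siNcor1* day 6 replicate 2 there was 1, without *siNcor1* day 3 replicate 1 there were 3, and without replicate 1 of the libraries labelled *siOct4* at day 6 there were 11. Where only 1 gene of a list was called in a direction, that call was lost without *siNcor1* day 6 replicate 2, except for *Ncor1*, *Acan* and 1 muscle marker.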

How the data were processed

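RNA was measured in 8 libraries prepared after ribosomal RNA depletion from 200 ng of total RNA. Reads were aligned by the authors with STAR 2.5.2b (mm10, GRCm38), and the authors deposited log2-cpm values computed with edgeR 3.20.9. Neither the read counter nor its use of strand is given in the sources used here. Whole reads were recovered from 100% of the values (tolerance 0.1 read), which gave the depth of each library. Between replicates the chi-square statistic was 8.44 to 18.7 per degree of freedom, so none was counted as a duplicate. For genes averaging 1 CPM or more, limma 3.58.1 in R 4.3.3 (lmFit, then eBayes with a variance trend) was fitted to the log2 values of all 4 groups, and calls were made at an adjusted p of 0.05. The interaction is a contrast of that fit, so with 1 library left out the lone library is assumed to vary like the others. The fit was tested on simulated data. Coordinates are from GENCODE M21, promoters from RefSeq (GRCm38.p6), and figures were drawn with matplotlib 3.10.9.

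The comparison, its genes and the 51 gene lists were chosen with earlier results of these data known. The named genes are *Ncor1* and the cassette, for each class and sign the 4 largest interactions with non-overlapping libraries and at least 10 CPM in 1 group, and up to 3 called genes of each sign per list, 190 in all. Of these, 95 kept their call with any 1 library left out and in every other setting, and the text gives mostly these. Another annotated gene overlaps 91 of the 190 (among those given *Ncor1*, *Sox2*, *Ccl2*, *Lox*, *Nid1*, *Tnc*, *Dysf*, *Inhba*, *Tfcp2l1* and *Igf2*), and reads of the partners cannot be told apart. Alternatives were other scalings, filters, pseudocounts, no trend, voom, a replicate block, another rule for classes and library totals without *Gm26917*. Totals without normalization factors were added after seeing the data. Some items are not reported here.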

Additional observations from a re-analysis of the deposited data

Results flagged for a closer look

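A difference between groups brought the interaction itself to notice. The gap between the knockdowns changed between the days, by the limma interaction test, for 2867 genes, of which 1077 changed in the positive and 1790 in the negative direction. All 190 genes chosen by the rule for names are among them. Apart from *Ncor1* and the cassette, the rule took called genes wherever there were any, so this is no separate result. Groups of 2 libraries are too small for a test of single outlying libraries.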

How the results depend on the processing

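The interaction kept its direction for every gene called both in the reported fit and in any of the 11 other settings fitted to all 8 libraries. Settings that changed only the filter, the variance trend or the block left each estimate as it was, so for them this was fixed in advance. The counts of the 11 settings were between 1925 and 3395. Without the variance trend there were 43 genes at day 3, 641 positive, 16 reversed, 17 faded and 1 of the same direction. With a mean of at least 10 CPM there were 81 genes at day 3, 38 reversed and 25 faded. With classes set by non-overlapping libraries, 1733 were reversed, 1004 appeared and 87 kept 1 direction. The share of positive genes was 37.6%, and between 30.3% and 46.2% under other scalings. With 1 library left out, the counts were between 1009 and 3667 for the interaction (266 to 1622 positive, 743 to 2393 negative), 3 to 375 at day 3, 1398 to 4669 at day 6, 2360 to 5954 between the days in *siNcor1*, 5397 to 7374 in the libraries labelled *siOct4*, 0 to 176 reversed, 893 to 3013 appeared, 1 to 105 faded and 1 to 11 of the same direction. The cause was not tested. The labels give the replicates numbers, and same-numbered libraries deviated together with correlations between −0.0395 and 0.281, which does not show that they are pairs. With the replicate number as a block there were 3395 interaction genes, 105 of them reversed, and no other count moved by over 1.5 times. The planned edgeR and DESeq2 fits on recovered reads were not run, since the deposited values are log2 values and not counts, and voom gave 2854 genes. Depth limits genes with 3 reads or fewer in a group, 13 of the 190.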

Other observations

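Of 28 unfolded protein and heat shock genes 4 were negative and 1 positive, with *Hspb1*, a small heat shock protein gene, at −1.27 (adjusted p = 0.016, limma, n = 2 libraries per group). That call was lost without *siNcor1* day 3 replicate 2, without *siNcor1* day 6 replicate 1 and without the variance trend. Negative genes of the list numbered 2 and 0 without *siNcor1* day 3 replicate 1 or 2, 0 and 1 without *siNcor1* day 6 replicate 1 or 2, and 1 and 2 without replicate 1 or 2 of the libraries labelled *siOct4* at day 3. The 1 positive gene was lost without any of the 4 *siNcor1* libraries or replicate 2 of the libraries labelled *siOct4* at day 3, and 5 were positive without replicate 1 of those at day 6. Of 17 DNA methylation genes 4 were positive and 0 negative, with *Uhrf1*, which guides maintenance methylation, at 0.88 (adjusted p = 0.0094). It had 7.42 and 7.65 log2-cpm in *siNcor1* and 7.47 in both libraries labelled *siOct4* at day 3, and 7.10 and 6.95 against 8.01 and 7.69 at day 6. Positive genes of this list numbered 0 without *siNcor1* day 3 replicate 2 or *siNcor1* day 6 replicate 2, 2 without *siNcor1* day 6 replicate 1 or replicate 1 of the libraries labelled *siOct4* at day 3, and 1 without replicate 2 of the latter. The *Uhrf1* call was lost without *siNcor1* day 3 replicate 2 or *siNcor1* day 6 replicate 2. Of 7 cartilage and bone markers that passed the filter, 5 were negative and 1, *Acan*, positive. The negative count was 2 without *siNcor1* day 3 replicate 1 and 1 without *siNcor1* day 3 replicate 2, *siNcor1* day 6 replicate 2 or replicate 2 of the libraries labelled *siOct4* at day 3. Of 6 muscle markers 1 was positive (2 without *siNcor1* day 3 replicate 2 or replicate 1 of the libraries labelled *siOct4* at day 3), of 4 macrophage markers 1 was negative (0 without *siNcor1* day 3 replicate 2, either *siNcor1* day 6 library or replicate 2 of the libraries labelled *siOct4* at day 3) and of 2 endothelial markers none was called by limma.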
